A study of Mus musculus with 6 samples.

Results

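Aquaporins are channel proteins that let water, and for some members small solutes, cross cell membranes. Carbonic anhydrases are enzymes that interconvert carbon dioxide and water with bicarbonate and protons. In the inner ear both families are known for their place in the volume and pH of endolymph, the potassium-rich fluid that bathes the hair bundles. In the vestibule, bicarbonate is also a source of carbonate for the otoconia, the calcium carbonate crystals that load the sensory epithelium. The mRNA of 10 such genes, 4 aquaporins (Aqp1, Aqp4, Aqp5 and Aqp11) and 6 carbonic anhydrases (Car2, Car3, Car8, Car12, Car13 and Car14), is described here. They were chosen by symbol, with no threshold on their values, and each symbol matched 1 Ensembl gene among the 39179 genes of the count files.

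The samples were the cochlear and vestibular sensory epithelia, the sheets of hair cells and supporting cells of the hearing and balance organs, of wild-type C57Bl/6J newborns (P0), male and female pooled. Each tissue is represented by 3 libraries made from 450 ng of RNA with a stranded mRNA kit. The methods describe 1 dissection of 20 inner ears from 10 mice, and no source used here says that the libraries of a tissue came from separate animals. The p-values below therefore measure the spread between these libraries, which may be technical.

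Between 24464483 and 33664793 counts fell on genes in a library, so that 1 CPM (a count scaled to the library's total on genes) stood for 24.5 to 33.7 counts. The labels were checked first. Tecta, of the tectorial membrane, and Epyc, of the cochlear epithelium, were called higher in the cochlea, and Oc90 and Otol1, genes of the otoconia, higher in the vestibule. Slc26a5, the outer hair cell motor protein, reached 1.55 to 3.32 CPM in the cochlea and at most 0.149 CPM in the vestibule. Otop1, needed for otoconia, reached 20.1 to 28.4 CPM in the vestibule and at most 0.0409 CPM in the cochlea. Cochlea replicate 3 stood apart in 8 skeletal muscle markers, which summed to 304.7 CPM there and to 7.52 to 31.2 CPM in the other 5 libraries. Each call on the 10 genes described here was the same without that library, except that of Car13. As these are bulk samples, fewer cells of a type and less RNA per cell cannot be told apart.

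All 10 genes passed the filter of at least 1 CPM in 3 or more libraries, and their lowest value in any library was 1.69 CPM. The quasi-likelihood test of edgeR, with p-values adjusted after Benjamini and Hochberg and a threshold of 0.05, called 7 of the 10, against 27.4% of the 14723 genes tested. Aqp5 and Aqp11 were higher in the cochlea, a direction called for 11.6% of all genes. Aqp4, Car3, Car12, Car13 and Car14 were higher in the vestibule, a direction called for 15.8% of all genes. Aqp1, Car2 and Car8 were not called. Of the 10 genes, 6 were both called and at least 2-fold different, all of the called genes but Car13, against 15.6% of all genes tested. The 7 called genes were those whose 3 libraries of a tissue all lay above the 3 of the other, which held for 41.8% of all genes (14.3% with the cochlea above and 27.5% with the vestibule above). The median log2 fold change of the 10 genes, vestibule minus cochlea, was 0.26, and the median of its size was 1.44, where all genes tested had 0.0048 and 0.32. Of all calls, 57.6% were higher in the vestibule, and 68.8% when library sizes were used without TMM scaling, which also moved the median of all genes to 0.12. CPM values below carry no TMM scaling, whereas fold changes do.

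**Figure D1:**
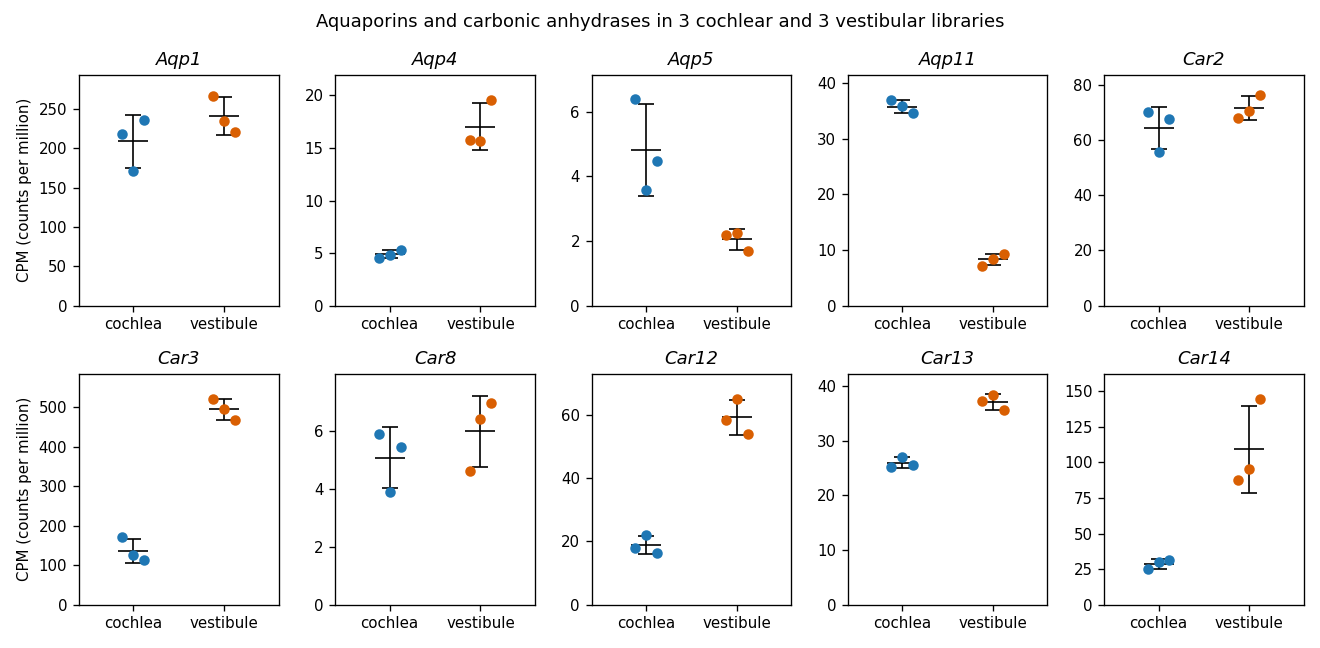
CPM of each of the 10 genes (y axis, from 0, with a scale of its own in each panel) in 3 cochlear and 3 vestibular libraries (points), with the mean and SD of each tissue (bars). The points of the tissues overlap for Aqp1, Car2 and Car8 and lie apart for the other 7 genes, with Aqp11 between 34.6 and 36.9 CPM in the cochlea and between 7.22 and 9.26 CPM in the vestibule.

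Aqp11, an aquaporin of divergent sequence that is found on intracellular membranes, had the largest difference in favour of the cochlea among the 10 genes. It reached 36.9, 35.8 and 34.6 CPM in cochlea replicates 1 to 3 and 7.22, 8.45 and 9.26 CPM in vestibule replicates 1 to 3. All cochlear libraries were high and all vestibular ones low, with a wide gap between the tissues. The fold change was -2.22 on the log2 scale (SE 0.16, 95% interval -2.59 to -1.85), which is 4.66-fold higher in the cochlea, with an adjusted p of 2.96e-05 in edgeR's quasi-likelihood test. The gene lies on the minus strand of chromosome 7, at 97724006 to 97738289 in GRCm38 (GENCODE vM21), and overlaps no other annotated gene. The 208 bases before its annotated start, at chr7:97738290-97738497 of GRCm38.p6 on the minus strand, are shown because this gene is the clearest call towards the cochlea.
Aqp11: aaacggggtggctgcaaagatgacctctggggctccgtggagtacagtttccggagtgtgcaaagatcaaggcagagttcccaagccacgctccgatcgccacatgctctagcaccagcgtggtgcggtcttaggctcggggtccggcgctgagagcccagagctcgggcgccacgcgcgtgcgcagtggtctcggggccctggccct

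By a rule of likeness, the root mean square difference of mean-centred log2 CPM over the 6 libraries, the 3 genes nearest to Aqp11 were Muc15 (0.084), Lrrtm1 (0.092) and Net1 (0.12), where the median gene was at 1.15. Muc15, a membrane mucin, had a mean of 181 CPM in the cochlea and 43.3 CPM in the vestibule. Lrrtm1, a synaptic adhesion protein, had means of 37.7 and 9.56 CPM, and Net1, an exchange factor for RhoA, had means of 299 and 67.7 CPM. The likeness is a description over 6 libraries of 2 tissues and says nothing of shared control.

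Aqp5, the water channel of secretory glands, was the other aquaporin higher in the cochlea, at a far lower level. It had 6.38, 3.58 and 4.48 CPM in the cochlear libraries and 2.20, 2.26 and 1.69 CPM in the vestibular ones, from 43 to 156 counts a library. Every cochlear library was above every vestibular one, but cochlea replicate 1 was well above the other two, and the cochlear values had a coefficient of variation of 29.7%. The log2 fold change was -1.34 (SE 0.26, 95% interval -1.93 to -0.75), 2.54-fold higher in the cochlea, with an adjusted p of 0.00502 in edgeR's quasi-likelihood test. Aqp5 lies on the plus strand of chromosome 15 at 99590782 to 99594829, beside Aqp6 and Aqp2.

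Aqp4, the water channel that glia and some inner ear supporting cells carry in arrays on their membrane, went the other way. Its values were 4.58, 4.86 and 5.30 CPM in the cochlear libraries and 15.8, 15.7 and 19.6 CPM in the vestibular ones. The tissues did not overlap, and vestibule replicate 3 was the highest of all. The log2 fold change was 1.68 (SE 0.19, 95% interval 1.24 to 2.11), or 3.20-fold higher in the vestibule, with an adjusted p of 0.000286 in edgeR's quasi-likelihood test. Aqp4 lies on chromosome 18, and an antisense gene that was not analysed here overlaps it.

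Aqp1, the classical water channel of red blood cells, endothelium and fibrocytes, was the most abundant aquaporin and did not pass the test. It had 218, 172 and 237 CPM in the cochlear libraries and 267, 235 and 220 CPM in the vestibular ones. Cochlea replicate 3 lay above 2 of the 3 vestibular libraries, and cochlea replicate 2 was the lowest of all. The log2 difference was 0.09 (SE 0.14, 95% interval -0.22 to 0.40; adjusted p = 0.668 in edgeR's quasi-likelihood test), so a difference beyond 0.40 in either direction lies outside the interval. The difference turned to -0.014 without cochlea replicate 2.

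Of the carbonic anhydrases, Car3 was the most abundant and among those that rose in the vestibule. Car3 is a cytosolic form of low activity best known from skeletal muscle, liver and fat. Its values were 170, 124 and 113 CPM in the cochlear libraries and 520, 496 and 466 CPM in the vestibular ones. The tissues lay far apart, and the muscle-marked cochlea replicate 3 was the lowest library of all. The log2 fold change was 1.74 (SE 0.17, 95% interval 1.36 to 2.13), 3.35-fold higher in the vestibule, with an adjusted p of 0.000122 in edgeR's quasi-likelihood test, and it was 1.61 without cochlea replicate 3.

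Car2, the fast cytosolic form found in many cell types, did not pass the test. It had 70.0, 55.8 and 67.6 CPM in the cochlear libraries and 68.0, 70.3 and 76.4 CPM in the vestibular ones. Cochlea replicate 1 lay among the vestibular libraries, and cochlea replicate 2 was the lowest. The log2 difference was 0.04 (SE 0.13, 95% interval -0.26 to 0.34; adjusted p = 0.861 in edgeR's quasi-likelihood test), which turned to -0.033 when cochlea replicate 2 was left out and to -0.034 when vestibule replicate 3 was.

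Car13, another cytosolic form, differed by little and its call was not firm. Its values were 25.3, 27.1 and 25.6 CPM in the cochlear libraries and 37.2, 38.4 and 35.6 CPM in the vestibular ones. The tissues did not overlap, and the coefficients of variation within them were 3.70% in the cochlea and 3.83% in the vestibule. The log2 fold change was 0.39 (SE 0.12, 95% interval 0.11 to 0.67), 1.31-fold higher in the vestibule, with an adjusted p of 0.0450 in edgeR's quasi-likelihood test. The call was kept in 2 of 14 alternatives, and leaving out any of the 6 libraries ended it, with adjusted p-values from 0.0553 (without cochlea replicate 2) to 0.166 (without vestibule replicate 2).

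The 3 cytosolic genes are neighbours in the genome, and their differences between the tissues were unlike. Car13, Car1, Car3 and Car2 follow each other on chromosome 3 within 259044 bases, with Car13 at 14641727 to 14663002, Car3 at 14863512 to 14872523 and Car2 at 14886273 to 14900770, all on the plus strand. Only 13749 bases separate Car3, 3.35-fold higher in the vestibule, from Car2, which was not called. Car1, on the minus strand between Car13 and Car3, had 13 to 22 counts in the cochlear libraries and 31 to 44 in the vestibular ones and did not pass the filter.

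Car12, a membrane enzyme with its active site outside the cell, rose in the vestibule. It had 18, 22 and 16.3 CPM in the cochlear libraries and 58.6, 65.3 and 54.2 CPM in the vestibular ones. The tissues did not overlap, and replicate 2 was the highest library in each. The log2 fold change was 1.53 (SE 0.16, 95% interval 1.16 to 1.91), 2.90-fold higher in the vestibule, with an adjusted p of 0.000203 in edgeR's quasi-likelihood test. Car12 lies on the plus strand of chromosome 9 at 66713686 to 66766845.

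Car14, another membrane enzyme facing the outside of the cell, had the largest difference in favour of the vestibule among the 10 genes. Its values were 24.8, 30.1 and 31.1 CPM in the cochlear libraries and 87.7, 95.3 and 144.5 CPM in the vestibular ones. All vestibular libraries were above all cochlear ones, and vestibule replicate 3 stood well above the other two. The log2 fold change was 1.82 (SE 0.23, 95% interval 1.29 to 2.35), 3.53-fold higher in the vestibule, with an adjusted p of 0.000563 in edgeR's quasi-likelihood test. Its first rank was not firm. Without vestibule replicate 3 Car14 was at 1.53 and Car3 at 1.76, and without cochlea replicate 1 they were at 1.71 and 1.91. Car14 lies on the minus strand of chromosome 3 at 95897768 to 95904691, outside the cluster, and overlaps Aph1a on the opposite strand. Aph1a, a subunit of gamma-secretase, had 2266 to 2845 counts in the cochlear libraries and 2172 to 2665 in the vestibular ones, which overlap. Whether the counting used strand is not given in the sources used here, so the part of reads shared between Aph1a and Car14 was not tested.

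The bases before the starts of Car12 and Car14, the membrane enzymes among the 10 genes, are shown because both genes were called higher in the vestibule, although vestibule replicate 3 was the lowest vestibular library for Car12 and the highest for Car14. The Car12 stretch is chr9:66713436-66713685 on the plus strand and the Car14 stretch chr3:95904692-95904935 on the minus strand, both from RefSeq on GRCm38.p6, as is that of Aqp11. Capitals mark CCGCCC, the reverse complement of the GC box GGGCGG, which begins 35 bases before the Car12 start.
Car12: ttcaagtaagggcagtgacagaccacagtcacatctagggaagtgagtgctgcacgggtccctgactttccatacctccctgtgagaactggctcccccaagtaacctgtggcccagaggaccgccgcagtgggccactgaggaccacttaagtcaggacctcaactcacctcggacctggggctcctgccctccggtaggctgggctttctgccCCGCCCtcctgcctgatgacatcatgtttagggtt
Car14: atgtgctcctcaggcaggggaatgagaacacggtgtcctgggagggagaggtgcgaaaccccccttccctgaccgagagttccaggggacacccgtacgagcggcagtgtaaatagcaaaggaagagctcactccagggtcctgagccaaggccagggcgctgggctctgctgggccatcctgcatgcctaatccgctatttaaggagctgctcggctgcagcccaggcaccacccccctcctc

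A promoter entry was found for 5 of the 10 genes, and 5 motifs were searched on both strands in the 250 bases before each start. They were TATAAA (in 12.4% of 32851 promoters of this length), CCAAT (33.8%), GGGCGG (32.7%), CACGTG (6.02%) and ACAAAG (16.5%). No match was found for Aqp11 or Car14. GGGCGG was the only match for Aqp1 and Car12. The Aqp1 window ends at 55336298 on chromosome 6, whereas GENCODE starts the gene further on, at 55336432. Aqp5 had GGGCGG 2 times along with CACGTG, but 246 of the 250 bases of its window lie inside the gene as GENCODE places it. A match describes letters in this window and no more.

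Genes near Car14 by the same rule of likeness were Ofcc1 (0.12), Ppil6 (0.13) and Ctla2b (0.14), where the median gene was at 0.96. These were far less abundant. Ofcc1 had means of 1.65 CPM in the cochlea and 5.43 CPM in the vestibule, Ppil6 1.65 and 6.65 CPM, and Ctla2b 0.806 and 3.62 CPM.

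Car8, a carbonic anhydrase related protein that lacks enzyme activity and is known as a partner of the IP3 receptor in Purkinje cells, did not pass the test. It had 5.89, 3.89 and 5.44 CPM in the cochlear libraries and 4.6, 6.42 and 6.95 CPM in the vestibular ones. The tissues overlapped, with vestibule replicate 1 below 2 of the 3 cochlear libraries. The log2 difference was 0.13 (SE 0.25, 95% interval -0.43 to 0.70; adjusted p = 0.730 in edgeR's quasi-likelihood test). Leaving out cochlea replicate 2 turned it to -0.0071, and leaving out vestibule replicate 3 to -0.013.

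Levels of different genes were compared as RPKM, reads scaled to the gene's length and to the counted reads of the library, from the authors' log2 matrix. In the cochlea the mean RPKM fell in the order Car3 (90.3), Aqp1 (79.6), Car2 (36.1), Aqp11 (27.1), Car13 (11.3), Car14 (11.3), Car12 (4.14), Aqp5 (2.90), Car8 (1.32) and Aqp4 (0.970). Neighbours whose ranges over the libraries overlapped there were Car3 and Aqp1, Car13 and Car14, Car12 and Aqp5, and Car8 and Aqp4. Within each single cochlear library, however, Car12 lay above Aqp5 and Car8 above Aqp4. In the vestibule the order was Car3 (328.4), Aqp1 (91.9), Car14 (43.0), Car2 (40.1), Car13 (16.2), Car12 (13.1), Aqp11 (6.31), Aqp4 (3.36), Car8 (1.56) and Aqp5 (1.24). The overlapping neighbours there were Car14 and Car2, and Car8 and Aqp5. Car3 thus had the highest RPKM of the 10 genes in every vestibular library, whereas in the cochlea its libraries (75.3 to 113 RPKM) overlapped those of Aqp1 (65.4 to 90.2 RPKM).

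**Figure D2:**
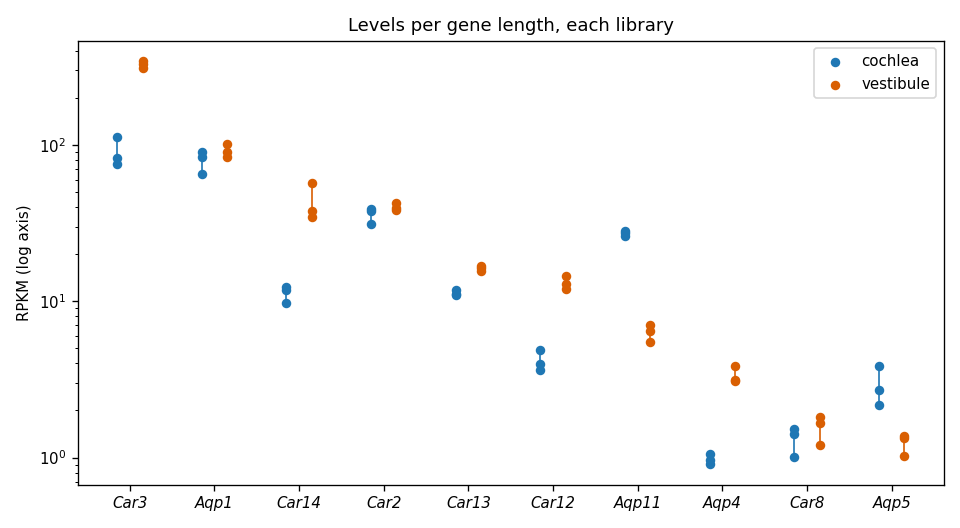
RPKM of the 10 genes (y axis, log scale) in each cochlear and vestibular library (points), with genes ordered by their mean in the vestibule. Car3 spans 310 to 345 RPKM in the vestibule and 75.3 to 113 RPKM in the cochlea, and Aqp11 is the gene in the upper part of the range that lies lower in the vestibule.

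The summed aquaporin mRNA overlapped between the tissues, and the shares of its main members did not. The 5 aquaporins in the matrix (Aqp1, Aqp4, Aqp5, Aqp6 and Aqp11) summed to 95.7 to 120.3 RPKM in the cochlear libraries and 97.2 to 112.7 RPKM in the vestibular ones, which overlap. Aqp1 made up 68.4% to 75% of that sum in the cochlea and 86.5% to 90.4% in the vestibule. Aqp11 made up 21.8% to 28.3% in the cochlea and 4.86% to 7.23% in the vestibule.

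The 11 carbonic anhydrases in the matrix summed to 168 to 201 RPKM in the cochlear libraries and 457 to 467 RPKM in the vestibular ones, with no overlap. Car3 made up 44.9% to 56.2% of the sum in the cochlea and 67.5% to 74% in the vestibule. Car2, with like RPKM in both tissues, made up 17.4% to 22.6% and 8.16% to 9.32%. These are shares of mRNA per length and not of enzyme.

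**Figure D3:**
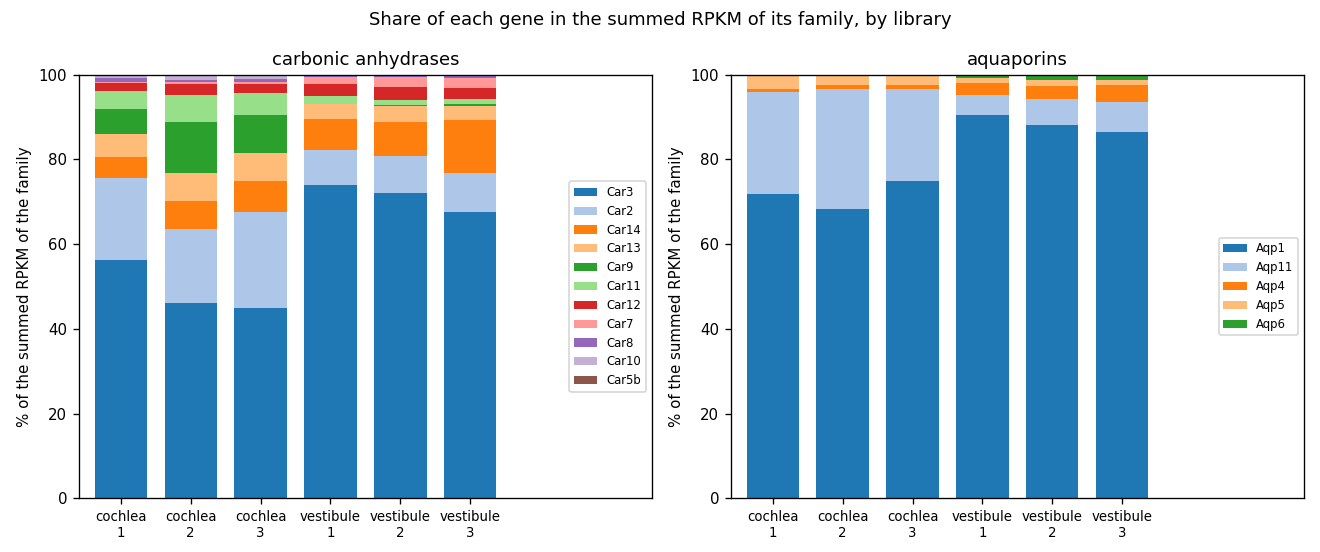
Share of each gene in the summed RPKM of its family (y axis, % of the sum) in each library (bars), for 11 carbonic anhydrases and 5 aquaporins. Car3 takes 44.9% to 56.2% of the carbonic anhydrase bar in the cochlea and 67.5% to 74% in the vestibule, and Aqp11 takes 21.8% to 28.3% of the aquaporin bar in the cochlea and 4.86% to 7.23% in the vestibule.

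Other members of both families were read from the same fit. Of 8 other aquaporins, 7 did not pass the filter, and Aqp6, an intracellular anion-conducting aquaporin, passed only through the vestibule, where it was high. It had 0.0818, 0.104 and 0.308 CPM in the cochlear libraries, from 2 to 9 counts, and 1.81, 2.57 and 2.55 CPM in the vestibular ones, from 61 to 66 counts. Since it entered the test only by being high in the vestibule, these values are given as a description, with no test. It lies next to Aqp5 on chromosome 15, at 99601400 to 99605477.

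Of 10 other carbonic anhydrases, 5 passed the filter and all 5 were called, 4 higher in the cochlea and 1 in the vestibule, directions called for 11.6% and 15.8% of all genes tested. Car9, a membrane enzyme induced by hypoxia, had 27.2, 49.7 and 34.7 CPM in the cochlear libraries and 1.57, 2.80 and 4.4 CPM in the vestibular ones. Its log2 fold change was -3.80 (13.9-fold higher in the cochlea; adjusted p = 0.000224 in edgeR's quasi-likelihood test). Of the membrane enzymes that were tested, Car9 was thus higher in the cochlea, and Car12 and Car14 in the vestibule. Car7, a cytosolic form known from neurons, had 1.14, 1.63 and 1.33 CPM in the cochlear libraries and 20.3, 25.3 and 26.6 CPM in the vestibular ones. With a log2 fold change of 4.01 (16.1-fold higher in the vestibule; adjusted p = 9.3e-06 in edgeR's quasi-likelihood test) it exceeded Car3, Car12 and Car14 in fold change, but its vestibular level of 8.27 to 10.8 RPKM was below theirs. Calls of Car7 and Car9 held in 14 of 14 alternatives.

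The other 3 calls were small and lost with some libraries. Mitochondrial Car5b had a log2 fold change of -0.86 (adjusted p = 0.0225 in edgeR's quasi-likelihood test), and missed the threshold without cochlea replicate 2 (0.0617), vestibule replicate 1 (0.0874) or vestibule replicate 2 (0.109). Car10 and Car11, which like Car8 are related proteins without enzyme activity, had log2 fold changes of -0.85 and -0.68 (adjusted p = 0.0371 and 0.0412 in edgeR's quasi-likelihood test). Car10 kept its call only without cochlea replicate 3 among the 6 libraries left out in turn, with adjusted p-values of 0.0566 to 0.145 without the others. Car11 lost it without cochlea replicates 1 (0.0589) and 2 (0.148) and without vestibule replicates 2 (0.184) and 3 (0.0936).

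**Figure D4:**
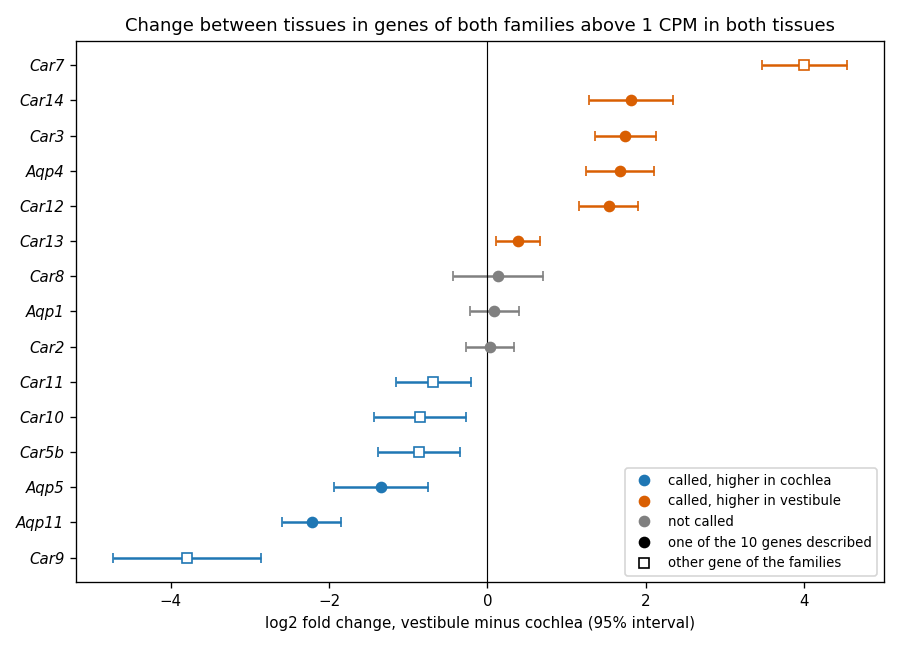
Log2 fold change, vestibule minus cochlea (x axis), with its 95% interval for the 15 genes of both families that passed the filter and reached 1 CPM in both tissues, with filled circles for the 10 genes described and open squares for other family members. Car7 (4.01) lies farthest to the vestibular side and Car9 (-3.80) and Aqp11 (-2.22) to the cochlear side, while the intervals of Aqp1, Car2 and Car8 cross 0.

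Carbonic anhydrases work with transporters that move their products, and lists of these were examined in the same way. Among 15 bicarbonate and anion exchangers, 13 were tested, 3 were called higher in the vestibule and 2 in the cochlea, and the median log2 fold change was 0.085. Slc4a4, the sodium bicarbonate cotransporter NBCe1, had 12.2, 12.2 and 16.3 CPM in the cochlear libraries and 54.8, 50.5 and 50.2 CPM in the vestibular ones, a log2 fold change of 1.82 (adjusted p = 4.8e-05 in edgeR's quasi-likelihood test). Slc26a4, the chloride and bicarbonate exchanger pendrin, had a log2 fold change of 1.11 (adjusted p = 0.00165 in the same edgeR test). Both calls held in 14 of 14 alternatives.

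The other 3 exchangers called were not firm. Slc26a9, an anion transporter, had a log2 fold change of 1.32 (adjusted p = 0.0302 in edgeR's quasi-likelihood test) and was lost without cochlea replicates 1 (0.101) or 2 (0.0867) or vestibule replicates 1 (0.103) or 2 (0.098). Slc4a5, a sodium bicarbonate cotransporter, was at -0.91 (adjusted p = 0.0237 in the same edgeR test), and was lost without vestibule replicates 1 (0.0502), 2 (0.109) or 3 (0.0647). Slc4a7, another such cotransporter, was at -0.40 (adjusted p = 0.0434 in the same edgeR test), and was lost without any of the 6 libraries, with values from 0.0556 (without vestibule replicate 1) to 0.211 (without vestibule replicate 2).

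Of 14 genes of proton transport, 10 were tested, 2 were called higher in the cochlea and 1 in the vestibule, and the median log2 fold change was -0.14. Atp6v1b1, the proton pump subunit whose loss causes renal tubular acidosis with deafness, had 17.0, 25.2 and 23.0 CPM in the cochlear libraries and 1.19, 1.67 and 1.3 CPM in the vestibular ones. Its log2 fold change of -4.10 (17.2-fold higher in the cochlea; adjusted p = 1.1e-05 in edgeR's quasi-likelihood test) held in 14 of 14 alternatives. Slc9a2, a sodium and proton exchanger, was at -1.02 (adjusted p = 0.0104 in the same edgeR test; 0.0526 without vestibule replicate 2). Atp6v1c2, another pump subunit, was at 0.83 (adjusted p = 0.0316 in the same edgeR test), and was called among the 6 libraries left out in turn only without vestibule replicate 3, with values of 0.0632 to 0.146 without the others.

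Calls in these lists stood at 5 of 13 and 3 of 10 genes tested, against 27.4% of all genes. Among genes of the complex that anchors aquaporin-4 in the membrane, Dtna, alpha-dystrobrevin, was 1.68-fold higher in the vestibule (log2 0.75; adjusted p = 0.00272 in edgeR's quasi-likelihood test). Sntb1, a syntrophin, was 2.64-fold higher in the cochlea (log2 -1.40; adjusted p = 0.000143 in the same edgeR test). Both calls held in 14 of 14 alternatives.

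Markers of other cell types also differed between the tissues, and their values stand beside these results, as several of the genes are known from such cells. Summed over 8 markers each, melanocytes (77.7 to 104.3 CPM in the cochlear and 330.0 to 381 CPM in the vestibular libraries), dark cells and stria (649 to 816 and 1267 to 1384 CPM), macrophages and osteoclasts (116 to 142 and 364 to 404 CPM) and endothelium (188 to 254 and 431 to 600 CPM) were all higher in the vestibule. Markers that reached 1 CPM in only 1 tissue had to differ to be tested, so Tyrp1, Mlana, Acp5, Comp and Otos were left out of the counts given here. Of the markers that remained, 4 of 5, 7 of 8, 6 of 6 and 6 of 8 in these lists were called higher in the vestibule, and 1 endothelial marker, Emcn, higher in the cochlea. Over all genes tested, 15.8% were called higher in the vestibule and 11.6% in the cochlea. Schwann cells and glia (576 to 867 and 1095 to 1569 CPM, 4 of 8 called higher in the vestibule and 1 in the cochlea) and mesenchyme and fibrocytes (5007 to 5730 and 7582 to 8744 CPM, 3 of 7 called higher in the vestibule and 2 in the cochlea) also summed higher there. Hair cell markers summed to 642 to 761 and 935 to 1211 CPM, with 3 of 8 called higher in the vestibule and 1 in the cochlea. The part of these cells in the differences of Aqp4, Car3, Car12 and Car14 was not tested.

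Other lists overlapped. Red blood cell markers summed to 293 to 738 CPM in the cochlear and 477 to 640 CPM in the vestibular libraries, and the 6 tested had adjusted p-values of 0.345 to 0.861 in edgeR's quasi-likelihood test. Red blood cells carry Aqp1 and Car2, and the part of these cells in the levels of the 2 genes was not tested. Supporting cell markers summed to 996 to 1131 and 1117 to 1188 CPM, with 4 of 8 called higher in the cochlea and 2 in the vestibule. Cartilage markers summed to 11360 to 18670 and 14170 to 17700 CPM, with 3 of 7 called higher in the vestibule and 1 in the cochlea. Neuron markers summed to 288 to 653 and 169 to 378 CPM, with 5 of 8 called higher in the cochlea. Of the skeletal muscle markers, 1 of 5 tested was called, higher in the cochlea. Apart from the label checks, the markers with a count of 0 in some library were Hbb-y of red blood cells, Myh3 of muscle and Ocstamp of osteoclasts.

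**Figure D5:**
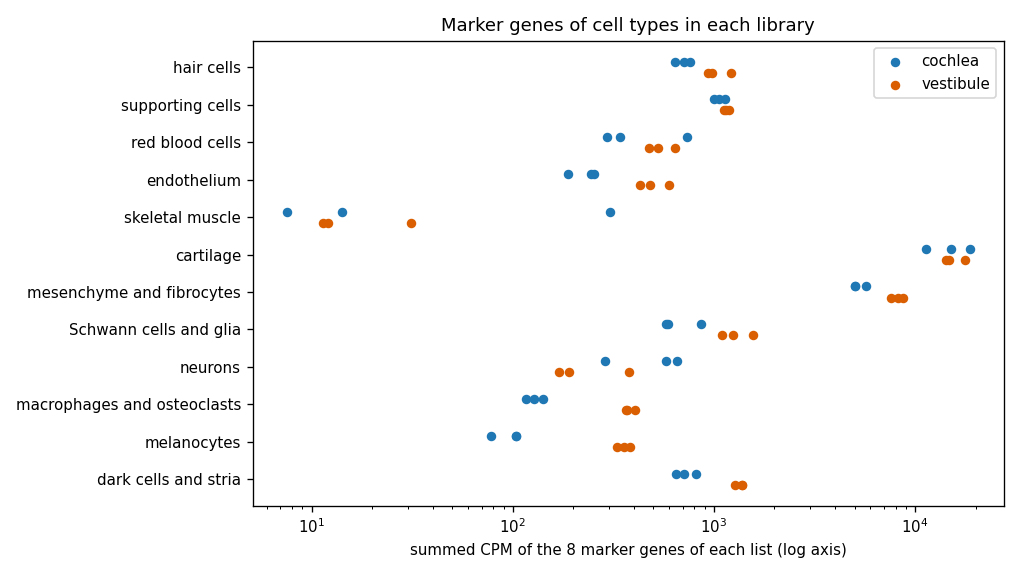
Summed CPM of the 8 markers of each cell type list (x axis, log scale) in each cochlear and vestibular library (points). Melanocyte, macrophage, endothelium and dark cell lists lie higher in every vestibular library, and the skeletal muscle list has 1 cochlear library, at 304.7 CPM, above the rest.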

How the data were processed

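RNA from 3 cochlear and 3 vestibular libraries was sequenced. Per the methods and the submitters' processing notes, the authors aligned the reads to GRCm38 with TopHat2 2.1.0, used SAMtools 0.1.18 and counted reads per Ensembl gene with HTSeq 0.5.4p5. They deposited raw counts per library and a matrix of log2 RPKM for 14722 genes, made with edgeR 3.4.2. Its log2 values minus log2 CPM differed between libraries by at most 0.00589 for the 10 genes, so that matrix was scaled by library size without TMM. The 5 summary lines of each count file (18.5% to 20.6% of the listed counts) were left out.

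The test was edgeR's quasi-likelihood test (edgeR 4.0.16 in R 4.3.3), fitted after TMM scaling and without a replicate block to all genes that reached 1 CPM in 3 libraries or more. P-values were adjusted over these genes by the method of Benjamini and Hochberg, and the FDR was 0.05. The common biological coefficient of variation was 0.195. The script was tested on simulated data. All library pairs differed by more than sampling noise, with a chi-square per degree of freedom of 26.6 to 92.7 within and 147 to 283 between the tissues, so no library was counted 2 times. The prior count of log2 CPM was 0.5.

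The text names all 10 genes, the called genes of each function list (up to 6 a list) and the 3 genes most like the member with the largest called change in each direction. For 1 further gene that the rule names, no result is reported here. Members and lists were chosen with earlier results of these data known. All 166 symbols matched a gene. Positions are those of GENCODE vM21 and promoters those of RefSeq on GRCm38.p6, whereas the authors counted on an earlier annotation. Alternatives were other normalizations, tests and filters, the replicate block and each library left out, with DESeq2 1.42.0 and limma 3.58.1. The figures come from matplotlib 3.10.9 under Python 3.11.15. Groups of 3 libraries were not tested for single outlying values.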

Additional observations from a re-analysis of the deposited data

How the results depend on the processing

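Of 140 log2 fold changes of the 10 genes under the alternatives, 123 kept their direction and their side of the threshold. Another 12, all of Car13, kept their direction but missed the threshold, with log2 fold changes of 0.35 to 0.45. The other 5 turned sign, all of genes that were not called. Aqp4, Aqp5, Aqp11, Car3, Car12 and Car14 were called in 14 of 14 alternatives. When single libraries were left out, the log2 difference ran from -0.014 to 0.17 for Aqp1, from -0.034 to 0.12 for Car2 and from -0.013 to 0.34 for Car8, and the calls among the 10 genes were 6. Over the same alternatives the calls ran from 2267 to 4557 for all genes, 925 to 1863 for those higher in the cochlea, 1342 to 2694 for those higher in the vestibule, 0 to 1 for other aquaporins, 2 to 5 for other carbonic anhydrases, 2 to 5 for bicarbonate and anion exchangers and 1 to 3 for proton transport. Calls on all genes fell most without vestibule replicate 2. The counts for other aquaporins are given only as what each setting returned and say nothing of stability, since Aqp6, the single one tested, entered through the vestibule alone and fails the filter without a vestibular library (0).

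Library sizes without TMM gave 3 calls among the 5 other carbonic anhydrases tested and 3 among the 13 bicarbonate and anion exchangers tested. In that setting 4005 of all 14723 genes tested were called. With no filter beyond 1 count, 2 other aquaporins and 6 genes of proton transport were called, beside 4791 of all 24771 genes tested. With filterByExpr the counts were 2 and 5, beside 4363 of 16258. Both settings also tested genes that failed the main filter, some of them nearly absent from the cochlea. Their list counts are therefore given only as what each setting returned. With a replicate block, 2618 genes were called in all and 1009 higher in the cochlea, with 2 calls among other carbonic anhydrases, 2 among the exchangers and an adjusted p of 0.151 for Car13. The numbers share no source in the labels, and the deviations of same-numbered libraries correlated across genes at -0.175, -0.26 and -0.475, so no library was nearest to its own number and no pairing was assumed. Except where a value's own construction is given, the cause was not tested. Among the 10 genes the fewest counts lie behind Aqp5, with 43 to 156 a library.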
